A study of Mus musculus with 40 samples.

Results

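The aminoacyl-tRNA synthetase genes of the mouse were followed across bone-marrow-derived macrophages (BMDMs) of 2 genotypes and 4 treatments. Members were taken by gene symbol: a letter followed by ars, with or without a final 1 or 2, plus Eprs, Farsa and Farsb. This gave 37 genes of the 43430 in the count table, 20 in a cytosolic group and 17 with symbols ending in 2 in a mitochondrial group, and all 37 passed the filter on low counts. RNA-seq was run on 40 libraries from 10 mice, with 5 libraries in each of 8 groups and 1 library per mouse and treatment. WT mice (labelled VAV-Cre WT) carried the Vav-iCre transgene alone. NDI1 mice (labelled VAV-Cre NDI1) carried Vav-iCre with a lox-stop-lox-NDI1 construct in the Rosa26 locus, so that yeast NADH dehydrogenase was made in blood-forming cells and their progeny, and both genotypes were littermates labelled as strain C57/Bl6 (the study's methods give a mixed J/N substrain background for the NDI1 line), males and females aged 8 to 14 weeks. BMDMs were grown with M-CSF to day 6 in medium that held methyl pyruvate and uridine. They were left untreated, given LPS at 100 ng/ml for 4 h, given piericidin A at 500 nM, or given piericidin A 30 min ahead of LPS. NDI1 is a yeast gene, and its own level was not analysed here.

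Aminoacyl-tRNA synthetases join each amino acid to its matching transfer RNA, the step that lets a ribosome read the genetic code. Cytosolic enzymes serve the main ribosomes, while the mitochondrial enzymes, also encoded in the nucleus, are imported to serve the mitochondrial ribosomes that make core subunits of the respiratory chain. Several cytosolic enzymes are held together in the multisynthetase complex by scaffold proteins, Wars is known as an interferon-inducible gene, and many cytosolic synthetase genes are known targets of the stress-induced transcription factor ATF4. Piericidin A blocks electron transfer at mitochondrial complex I, which NDI1 can bypass. Kars and Gars, placed in the cytosolic group by their symbols, each encode both the cytosolic and the mitochondrial enzyme.

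Between 6950748 and 13552070 counts were recorded per library (median 10361773.5). CPM is the count scaled to the library's TMM-adjusted total, and a call means an adjusted p under 0.05 in edgeR's quasi-likelihood test over 11853 genes. Its p-values measure the spread between the libraries of a group, each from a different mouse. The fit has no term for the mouse, so libraries of the same mouse in different groups count as independent. The 8 macrophage markers summed to between 19854 and 38815 CPM, and none of the 8 was at 0. Mice 496 (WT) and 503 (NDI1) stood apart on the second principal component, at 35.3 to 72.8 and 28.1 to 30.6 against −26.3 to 13.6 in the other 32 libraries. Their 5 neutrophil and precursor markers summed to a median of 743 and 423 CPM, against a median of 59.0 over all libraries, and 5 stromal markers to a median of 67.0 and 17.4 CPM against 7.30. Of 2 mast cell markers, 1 (Mcpt4) was at 0 in all libraries. Counts of calls were therefore also computed without these 2 mice. Values per library are listed for mice 449, 452, 453, 496 and 520 (WT) and for mice 447, 460, 461, 503 and 521 (NDI1), in these orders.

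The cytosolic synthetase genes were expressed above most mitochondrial ones in untreated WT BMDMs. Levels between genes were compared as CPM per kb of each gene's principal GENCODE transcript. The 20 cytosolic genes lay between 8.45 and 76.9 CPM per kb with a median of 19.2, and the 17 mitochondrial genes between 0.543 and 57.0 with a median of 3.02. Nars, the asparaginyl-tRNA synthetase, was highest, at 76.9 ± 8.31 CPM per kb (SD, n = 5). Dars (37.5 ± 5.34), Sars (33.8 ± 7.13), Wars (33.8 ± 3.89), Rars (33.8 ± 3.05), Gars (31.7 ± 4.19) and Aars (31.6 ± 5.57) came next among the cytosolic genes, and the ranges of these neighbours overlapped. At the lower end, the cytosolic Yars (8.45 ± 1.72) and Vars (9.28 ± 1.10) overlapped the mitochondrial Iars2 (8.92 ± 1.34), Fars2 (7.71 ± 1.27) and Rars2 (7.67 ± 0.706). Mars2, the mitochondrial methionyl-tRNA synthetase, was lowest, at 0.543 ± 0.0575 CPM per kb. This rank depends on its principal transcript of 11294 bases, the longest of these genes. In CPM without the length, Mars2 lay above Nars2 and Pars2. The high mitochondrial value belonged to Lars2, which is described apart, and without it the mitochondrial genes reached 8.92 CPM per kb. The precision of the low genes is limited by their counts: Mars2 had 6 to 113 counts per library, Nars2 4 to 66 and Pars2 5 to 67.

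**Figure D1:**
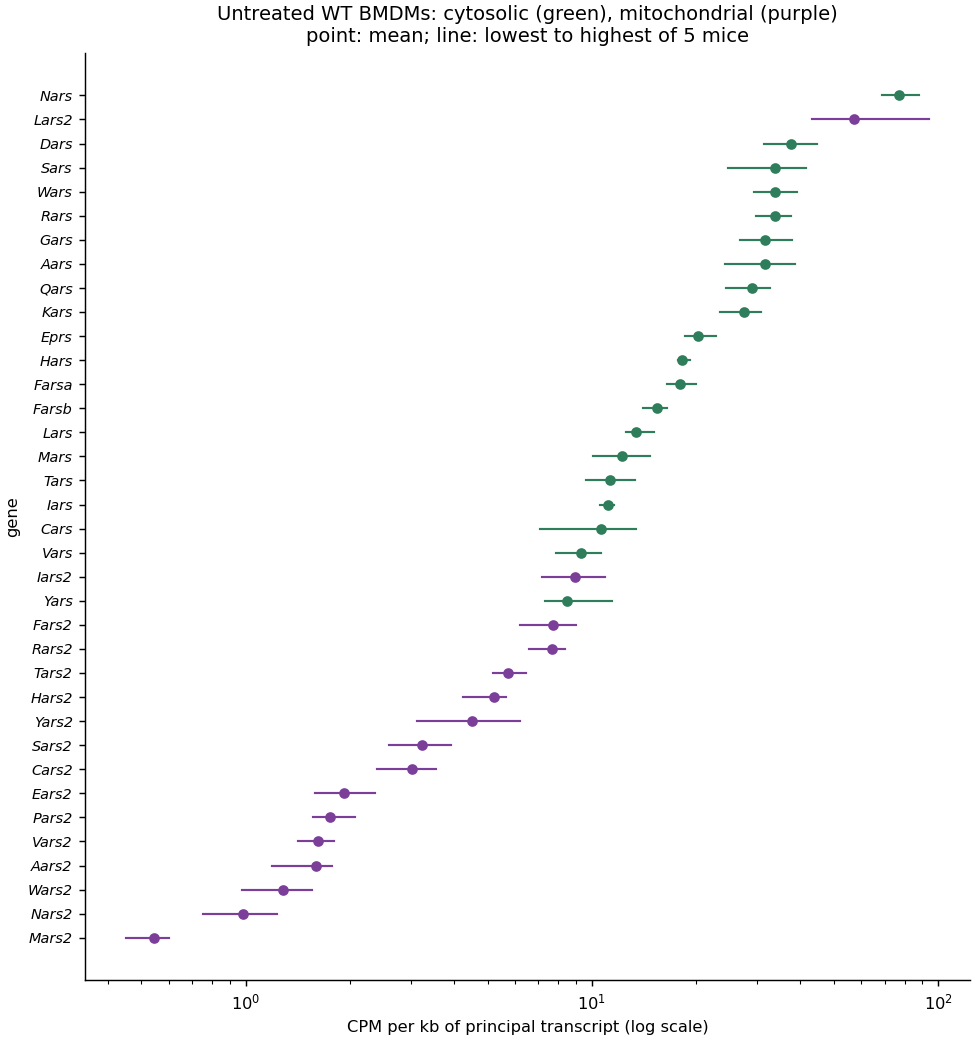
Levels of 36 of the 37 synthetase genes in untreated WT BMDMs, in CPM per kb of principal transcript on a log axis. Points are means and lines run from the lowest to the highest of 5 mice. Nars leads at 76.9 and Mars2 is lowest at 0.543, and Lars2 is the only mitochondrial gene above 8.92.

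With LPS, cytosolic genes were called in both directions and mitochondrial genes only downward. In WT BMDMs, 4 of the 20 cytosolic genes rose (20.0%, against 31.5% of all genes tested) and 9 fell (45.0%, against 31.0%), while 7 were not called. Of the 17 mitochondrial genes, 0 rose and 11 fell (64.7%), and 6 were not called. The median log2 fold change was −0.18 over the cytosolic and −0.63 over the mitochondrial genes, against −0.01 over all genes tested. A fit with the mouse as a block called 72.0% of all genes, and in it 5 cytosolic genes rose and 10 fell, with 2 and 11 in the mitochondrial group. Without mice 496 and 503, 13 cytosolic and 10 mitochondrial genes were called. With at least 10 counts required in every library, 13 mitochondrial genes remained in the test and 7 were called. Markers of other cells also differed between these WT libraries. The 4 dendritic markers summed to 0.987 to 2.98 CPM untreated and 7.12 to 9.46 CPM with LPS, without overlap. Neutrophil and precursor markers summed to a median of 28.4 CPM untreated (14.5 to 264) and 44.9 CPM with LPS (30.0 to 574), and stromal markers to 3.68 CPM (1.80 to 32.9) and 7.12 CPM (5.41 to 69.8). Their part in the LPS results was not tested. The TMM factors of the WT libraries also separated by treatment, at 1.25 to 1.37 untreated and 0.696 to 0.876 with LPS. The LPS fold changes and CPM values rest on this scaling.

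**Figure D2:**
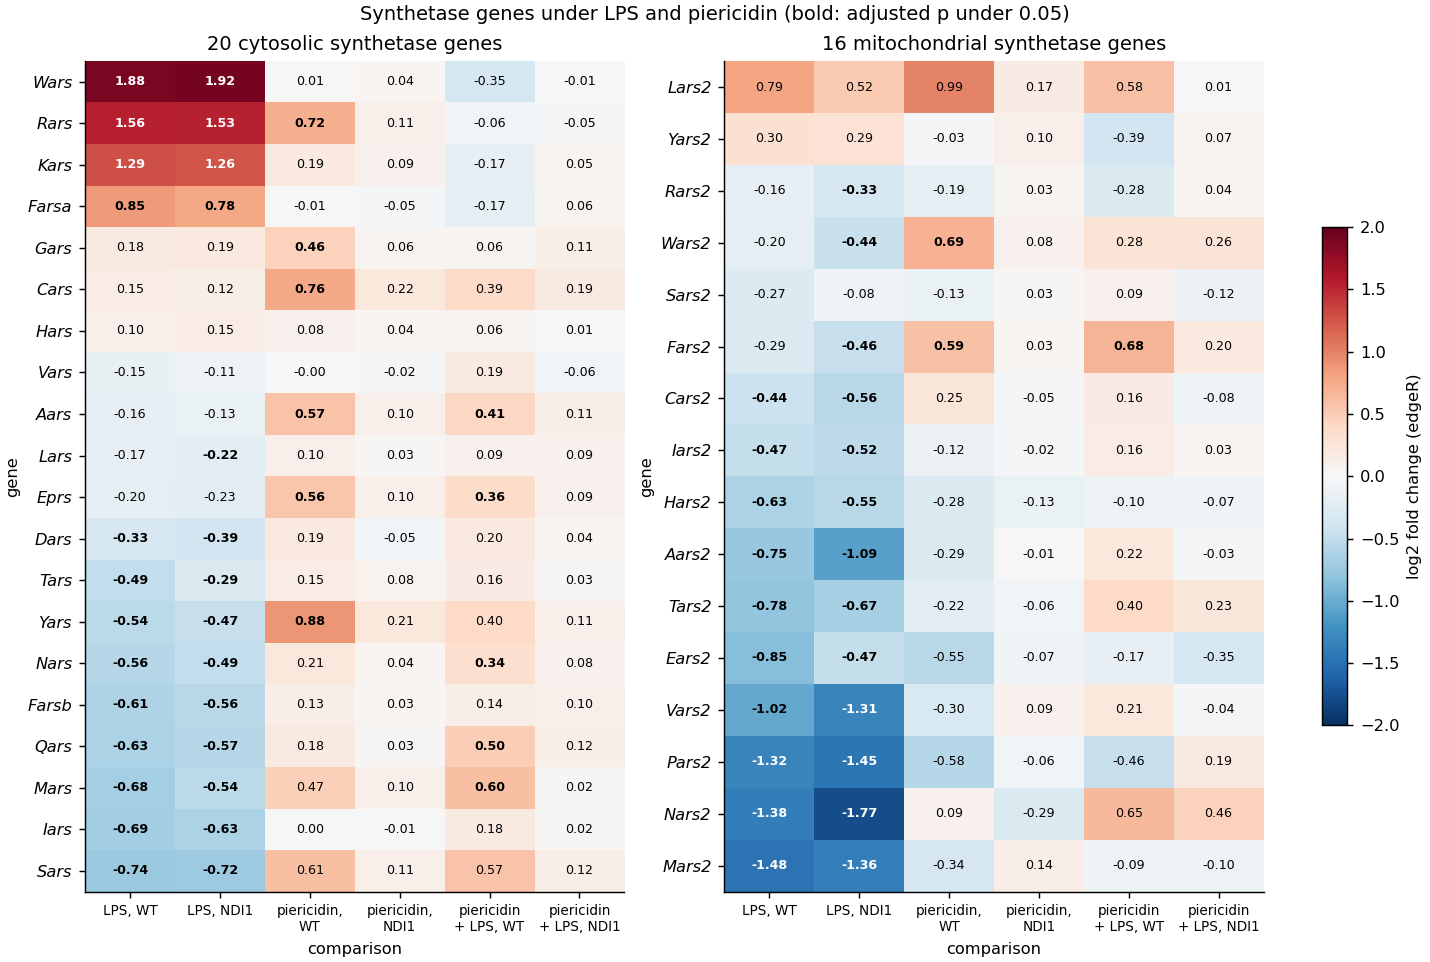
Log2 fold changes of the 20 cytosolic and 16 of the 17 mitochondrial synthetase genes for 6 comparisons, with bold values for adjusted p under 0.05 in edgeR. The LPS columns run from 1.88 for Wars to −1.48 for Mars2 in WT and from 1.92 for Wars to −1.77 for Nars2 in NDI1, and the piericidin columns hold bold values in WT and none in NDI1.

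Wars, the tryptophanyl-tRNA synthetase (chr12:108860030-108894174 in mm10, minus strand), rose most with LPS. Its level was 56.3, 61.9, 71.3, 53.5 and 65.3 CPM in untreated WT libraries and 259, 250.4, 204, 205 and 219 CPM with LPS, and the groups did not overlap. The log2 fold change was 1.88 (SE 0.13, adjusted p = 5.82e-15), and Wars was higher in 5 of 5 mice. Rars, the arginyl-tRNA synthetase and a member of the multisynthetase complex (chr11:35808381-35834506 in mm10, minus strand), was at 66.8, 63.0, 74.6, 72.6 and 79.2 CPM untreated and 217, 199.95, 179.6, 240.5 and 215 CPM with LPS. Every LPS library lay above every untreated one, and the log2 fold change was 1.56 (SE 0.11, adjusted p = 7.29e-15). Kars, the lysyl-tRNA synthetase of both compartments (chr8:111993440-112011323 in mm10, minus strand), went from 47.0, 51.2, 54.8, 61.0 and 61.8 CPM to 147, 127, 125, 141 and 135 CPM, again without overlap. Its log2 fold change was 1.29 (SE 0.09, adjusted p = 1.05e-14).

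The subunits of phenylalanyl-tRNA synthetase moved in opposite directions with LPS. Farsa, the alpha subunit, was at 34.2, 31.2, 32.4, 36.5 and 30.0 CPM untreated and 64.9, 52.3, 49.0, 62.8 and 67.1 CPM with LPS. Farsb, the beta subunit, was at 32.0, 28.7, 33.6, 31.6 and 31.6 CPM untreated and 18.5, 18.9, 25.7, 19.9 and 19.8 CPM with LPS. The libraries of each gene separated completely by treatment, Farsa upward and Farsb downward. The log2 fold changes were 0.85 (SE 0.10, adjusted p = 2.3e-09) for Farsa and −0.61 (SE 0.11, adjusted p = 9e-06) for Farsb. Farsb shares exon sequence with Sgpp2 on the opposite strand, and the strand setting of the counting is not given in the sources used here, so its value is less certain.

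A further 8 cytosolic genes fell with LPS, by 0.33 (Dars) to 0.74 (Sars) on the log2 scale. Sars, the seryl-tRNA synthetase, was at 110.1, 112, 145, 88.1 and 148 CPM untreated and 72.3, 75.1, 92.7, 42.8 and 78.3 CPM with LPS. The groups overlapped, with mouse 496 lowest in both, and Sars was lower within 5 of 5 mice. Its log2 fold change was −0.74 (SE 0.25, adjusted p = 0.011). Qars, the glutaminyl-tRNA synthetase, which has no mitochondrial partner, fell from 76.9, 91.6, 91.6, 68.5 and 77.1 CPM to 48.7, 58.7, 64.3, 44.5 and 45.6 CPM, without overlap. Its log2 fold change was −0.63 (SE 0.13, adjusted p = 4.26e-05). Nars fell by 0.56, Mars (methionyl) by 0.68, Iars (isoleucyl) by 0.69, Yars (tyrosyl) by 0.54, Tars (threonyl) by 0.49 and Dars (aspartyl) by 0.33 on the log2 scale, with adjusted p between 4.98e-07 (Iars) and 0.0298 (Dars). Aars (alanyl), Eprs (glutamyl and prolyl in 1 protein), Gars (glycyl), Cars (cysteinyl), Hars (histidyl), Lars (leucyl) and Vars (valyl) were not called, with log2 fold changes between −0.20 and 0.18.

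By complex membership, 2 of the 8 genes of the multisynthetase complex rose with LPS (25.0%) and 4 fell, and of the 12 other cytosolic genes 2 rose and 5 fell (16.7% and 41.7%). Over all genes tested 31.5% rose and 31.0% fell. Among the 3 scaffold genes, Eef1e1 (AIMP3) had a median of 11.9 CPM untreated and 21.8 CPM with LPS in WT and rose by a log2 fold change of 0.87 (adjusted p = 0.00177). Aimp1 and Aimp2 had log2 fold changes of −0.21 (adjusted p = 0.211) and −0.47 (adjusted p = 0.0786) and were not called, and Aimp2 was called in NDI1, at −0.53 (adjusted p = 0.042). With the mouse as a block, 1 of the 3 scaffold genes fell in WT and 2 in NDI1, where 72.0% and 72.4% of all genes were called.

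**Figure D3:**
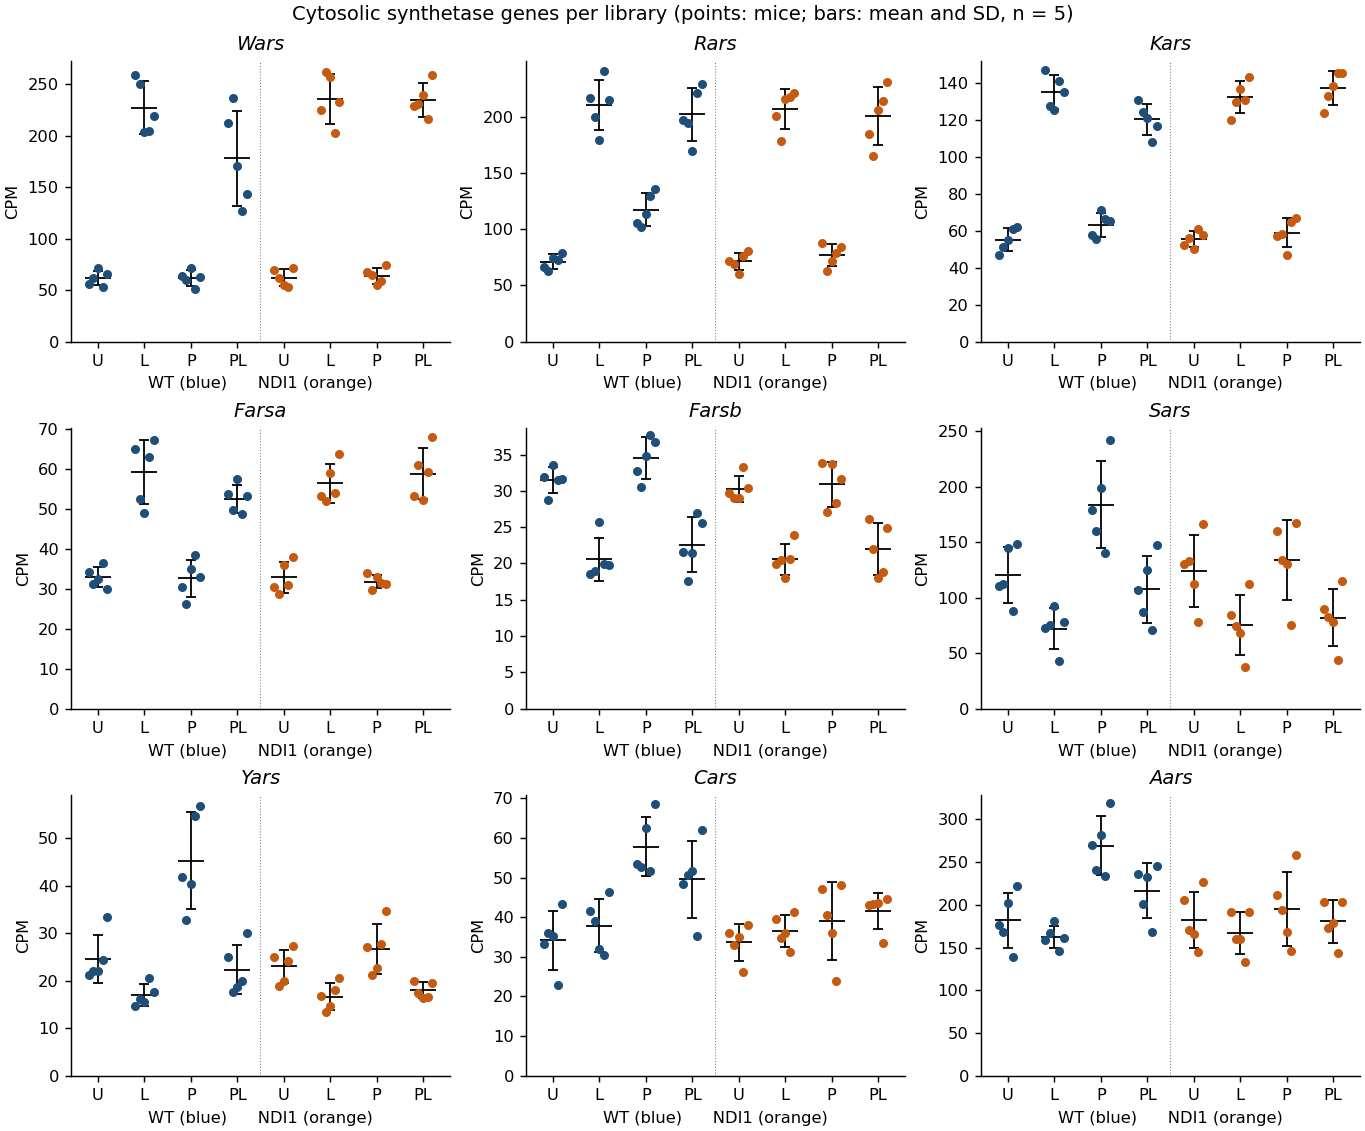
CPM of 9 cytosolic synthetase genes in each of 40 libraries, for untreated (U), LPS (L), piericidin A (P) and both (PL). Points are mice and bars show mean and SD of 5. Wars, Rars, Kars and Farsa rise with LPS in both genotypes, Farsb and Sars fall, and Rars, Yars, Cars and Aars rise with piericidin A alone in WT.

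The 11 mitochondrial synthetase genes that fell with LPS in WT serve 11 different amino acids. Mars2 was at 6.28, 6.79, 6.50, 5.09 and 6.03 CPM in untreated WT libraries and 0.817, 2.14, 2.23, 2.06 and 3.79 CPM with LPS, with a log2 fold change of −1.48 (SE 0.24, adjusted p = 1.47e-06). Nars2, the asparaginyl enzyme of mitochondria, was at 4.65, 3.30, 4.06, 3.66 and 2.85 CPM and 1.23, 1.71, 2.12, 0.686 and 1.21 CPM, with a log2 fold change of −1.38 (SE 0.29, adjusted p = 0.000107). Pars2, the prolyl enzyme, was at 3.59, 3.80, 4.53, 3.82 and 3.43 CPM and 2.18, 1.17, 1.67, 0.823 and 1.82 CPM, with a log2 fold change of −1.32 (SE 0.25, adjusted p = 2.13e-05). In each of these genes the highest LPS library lay below the lowest untreated one. Vars2 (valyl), Ears2 (glutamyl), Tars2 (threonyl), Aars2 (alanyl), Hars2 (histidyl), Iars2 (isoleucyl) and Cars2 (cysteinyl) fell by between 0.44 (Cars2) and 1.02 (Vars2) on the log2 scale. Rars2, Sars2, Wars2 and Fars2 had log2 fold changes from −0.29 to −0.16 and were not called, nor was Yars2, at 0.30. Yars2, the mitochondrial tyrosyl enzyme, was called with the mouse as a block, at an adjusted p of 0.0357. Nars2, Hars2, Ears2, Iars2, Cars2, Vars2 and Fars2 share exon sequence with another gene on the opposite strand and are less certain for the reason given for Farsb. In bulk RNA, fewer cells of a type and less RNA per cell cannot be told apart.

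Cytosolic and mitochondrial genes for the same amino acid were compared as pairs. Of 14 such pairs, both genes were called with LPS in WT in 5, those of Iars, Mars, Nars and Tars among them, in each case downward. In 10 of 14 pairs the mitochondrial log2 fold change lay below the cytosolic one. Wars and Rars, the genes that rose most, had partners that were not called, at −0.20 for Wars2 and −0.16 for Rars2. Vars and Hars, at −0.15 and 0.10, were not called while Vars2 and Hars2 fell by 1.02 and 0.63. Hars and Hars2 lie on opposite strands and share exon sequence.

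Levels were also summed over the genes of each group. The 20 cytosolic genes summed to 1281 to 1594 CPM in untreated WT libraries and 1492 to 1628 CPM with LPS. The 16 mitochondrial genes other than Lars2 summed to 156 to 195 CPM untreated and 98.1 to 156 CPM with LPS. The ratio of the sums was 8.23 ± 0.662 (SD, n = 5) untreated and 13.3 ± 1.96 with LPS in WT, and 7.75 ± 0.397 and 13.0 ± 1.02 in NDI1.

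In NDI1 BMDMs the genes called with LPS included those called in WT. In the cytosolic group 4 genes rose, the same 4 as in WT (31.5% of all genes rose), and 10 fell, the 9 of WT and Lars (31.2% of all genes fell). In the mitochondrial group 14 fell, the 11 of WT with Fars2, Rars2 and Wars2. The blocked fit called 72.4% of all genes, 16 cytosolic and 15 mitochondrial genes. Without mice 496 and 503, 11 cytosolic and 12 mitochondrial genes were called. Wars was at 69.2, 62.1, 55.2, 53.5 and 71.3 CPM untreated and 225, 262, 257, 203 and 233 CPM with LPS in NDI1, and its log2 fold change was 1.92 (SE 0.13, adjusted p = 3.72e-15). The NDI1 groups, like the WT groups, did not overlap. In NDI1 libraries dendritic markers summed to a median of 2.82 CPM untreated (1.51 to 4.17) and 7.11 CPM with LPS (4.08 to 12.8), neutrophil and precursor markers to 40.3 CPM (8.76 to 265) and 59.7 CPM (24.2 to 510.3), and stromal markers to 2.96 CPM (0.914 to 11.2) and 9.88 CPM (5.88 to 27.2), and their part was not tested here either. The LPS effect itself was not tested for a difference between genotypes. Without LPS or piericidin A, and with LPS alone, NDI1 against WT gave 0 calls among the 37 genes and 0.0% among all genes. At an unadjusted p under 0.05, edgeR had 39 genes untreated and 141 with LPS, none of them a synthetase gene, and DESeq2 also called 0 genes in each, with 50 and 116 at an unadjusted p under 0.05, of which 1 with LPS was a mitochondrial synthetase gene.

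**Figure D4:**
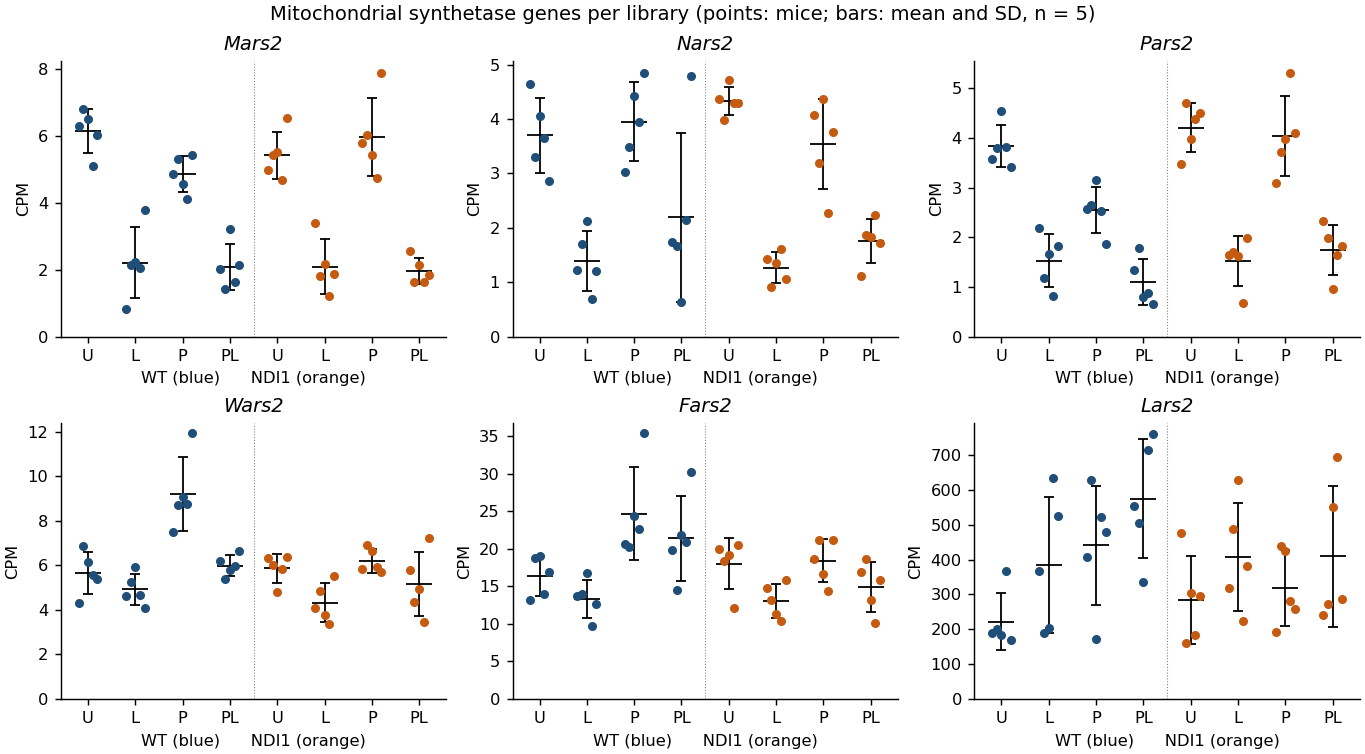
CPM of 6 mitochondrial synthetase genes in each of 40 libraries, with points for mice and bars for mean and SD of 5 (U untreated, L LPS, P piericidin A, PL both). Mars2, Nars2 and Pars2 fall with LPS in both genotypes, Wars2 and Fars2 rise with piericidin A in WT, and Lars2 spreads widely within groups.

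Piericidin A alone raised 6 cytosolic synthetase genes in WT BMDMs and lowered 0. The 6, Yars, Cars, Rars, Aars, Eprs and Gars, were 30.0% of the 20 genes, against 7.79% of all genes tested that rose and 7.05% that fell. The median log2 fold change over the 20 genes was 0.19, against 0.00 over all genes, and 18 of the 20 were above 0. In the blocked fit, which called 34.2% of all genes, 10 cytosolic genes rose and 0 fell. The count was also 6 without mice 496 and 503, and 5 to 7 with any 1 mouse left out. In WT libraries with piericidin A, neutrophil and precursor markers summed to 18.7 to 912 CPM (median 44.9, against 28.4 untreated), stromal markers to 1.83 to 64.3 CPM (median 3.37, against 3.68) and dendritic markers to 1.31 to 9.82 CPM (median 1.62, against 2.64). The sum over the 20 genes was 1281 to 1594 CPM untreated and 1666 to 2091 CPM with piericidin A.

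Yars, the tyrosyl-tRNA synthetase (chr4:129189760-129219607 in mm10, plus strand), rose most. It was at 21.3, 22.0, 21.9, 24.4 and 33.3 CPM untreated and 41.7, 32.7, 40.4, 54.6 and 56.8 CPM with piericidin A. The ranges overlapped narrowly, with mouse 520 untreated above mouse 452 given piericidin A, and Yars was higher with piericidin A within 5 of 5 mice. The log2 fold change was 0.88 (SE 0.16, adjusted p = 0.000168). Yars shares exon sequence with C77080 on the opposite strand, and Cars with the pseudogene Gm15580. Cars, the cysteinyl-tRNA synthetase, was at 33.3, 36.0, 35.3, 22.8 and 43.3 CPM untreated and 53.5, 52.7, 62.5, 51.6 and 68.5 CPM with piericidin A, without overlap, with a log2 fold change of 0.76 (SE 0.16, adjusted p = 0.00112). Rars, already named for its rise with LPS, was at 106, 102, 113, 129 and 135 CPM with piericidin A, against 63.0 to 79.2 CPM untreated. Its log2 fold change of 0.72 (SE 0.11, adjusted p = 1.65e-05) was the one with the smallest adjusted p among the 37 genes in this comparison.

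Aars, Eprs and Gars rose by smaller factors. Aars was at 176, 168, 202, 139 and 223 CPM untreated and 270.4, 241, 282, 234 and 319 CPM with piericidin A, with a log2 fold change of 0.57 (SE 0.14, adjusted p = 0.00639). Eprs was at 98.6, 91.4, 99.9, 95.1 and 112 CPM and 160.2, 131, 152, 122 and 165 CPM, with a log2 fold change of 0.56 (SE 0.11, adjusted p = 0.000409). Gars was at 63.7, 74.2, 79.3, 69.7 and 90.0 CPM and 93.2, 94.1, 106, 93.8 and 131 CPM, with a log2 fold change of 0.46 (SE 0.13, adjusted p = 0.0121). In each of the 3 genes every piericidin library lay above every untreated one. Gars was not called without mouse 496, at an adjusted p of 0.0556. Aars overlaps Exosc6 on the same strand.

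A further 4 genes, Sars, Mars, Nars and Qars, were called with the mouse as a block. Sars was at 110.1, 112, 145, 88.1 and 148 CPM untreated and 179, 159.7, 198, 140.1 and 243 CPM with piericidin A, a log2 fold change of 0.61 (SE 0.25, adjusted p = 0.0979), and was higher within 5 of 5 mice by 0.45 to 0.71. The adjusted p with the block was 8.92e-07, and Sars was also called in a fit of the compared groups alone (0.0376) and without mouse 503 (0.028). Mars, Nars and Qars had log2 fold changes of 0.47, 0.21 and 0.18, with adjusted p of 0.104, 0.247 and 0.347 without the block and 0.000458, 0.0269 and 0.0334 with it. Mars shares exon sequence with Ddit3 on the opposite strand, a stress gene that rose with piericidin A by a log2 fold change of 1.06 (adjusted p = 0.0103), and its part in the Mars counts was not tested. Wars, Farsa, Iars and Vars had log2 fold changes between −0.01 and 0.01. Kars had a log2 fold change of 0.19 (SE 0.09, adjusted p = 0.156).

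Promoter sequences are shown because many genes that respond to ATF4 carry a C/EBP-ATF composite element, whose core letters are TGATGNAA. Both strands were searched in RefSeq windows (GRCm38.p6) from 250 bases before to 50 bases after each gene start. A window was at hand for 26 of the 37 genes, and 5 of these (19.2%) held a match, against 1219 of 27025 gene windows (4.51%). The 5 were Aars, Gars, Iars, Tars and Yars, all cytosolic, of 12 cytosolic genes with a window, and 0 of the 14 mitochondrial windows held a match. Of the 6 genes that rose with piericidin A, Yars, Aars and Gars held a match and Eprs did not. Cars and Rars are among the 11 genes not searched. Iars, which holds a match, had a log2 fold change with piericidin A of 0.00 (SE 0.10, adjusted p = 0.983). Sites of 30 bases are printed 5′ to 3′ on the gene's strand, with the matched letters in capitals, for 3 matched genes, Yars, which rose in WT with piericidin A alone, and Iars and Tars, which were not called in WT with piericidin A alone.
Yars, chr4:129189895-129189924, plus strand: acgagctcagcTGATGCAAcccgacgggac
Iars, chr13:49682126-49682155, plus strand: cactgtcagtaTTGCATCAcctccagacgc
Tars, chr15:11399655-11399684, minus strand: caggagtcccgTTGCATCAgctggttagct

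The Tars match began 15 bases before the start, while those of Yars and Iars began at bases 4 and 8 of the transcript. The letters in Iars and Tars are the reverse complement of the core. In the files' annotation the Yars gene begins at 129189760, ahead of the RefSeq start used here. A match describes letters in these windows and shows no binding. Among 6 reference genes of the ATF4 axis, 5 rose with piericidin A alone in WT (83.3%, against 7.79% of all genes): Atf4 by a log2 fold change of 1.34 (adjusted p = 0.000369), and Asns, Chac1, Ddit3 and Trib3 by 1.06 (Ddit3) to 3.47 (Chac1). In NDI1 0 of the 6 were called, as were 0.0% of all genes. Of the 8 genes of the multisynthetase complex 2 (Rars and Eprs, 25.0%) rose with piericidin A alone, and of the other 12 cytosolic genes 4 (33.3%). With the mouse as a block, 4 of the 8 and 6 of the 12 rose, in a fit that called 34.2% of all genes.

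Piericidin A alone raised Wars2 and Fars2 in the mitochondrial group. Of the 17 genes in WT, 2 rose (11.8%, against 7.79% of all genes) and 0 fell, and the median log2 fold change was −0.19. Wars2, the mitochondrial tryptophanyl enzyme, was at 4.32, 6.85, 6.16, 5.56 and 5.39 CPM untreated and 7.4972, 8.71, 9.05, 8.75 and 11.9 CPM with piericidin A, without overlap, with a log2 fold change of 0.69 (SE 0.15, adjusted p = 0.00192). Its cytosolic partner Wars had a log2 fold change of 0.01. Fars2, the single-chain phenylalanyl enzyme of mitochondria, was at 13.2, 18.7, 19.1, 13.989 and 16.9 CPM and 20.6, 20.3, 24.4, 22.7 and 35.5 CPM, with a log2 fold change of 0.59 (SE 0.18, adjusted p = 0.0239). Fars2 shares exon sequence with Lyrm4 and Nrn1 on the opposite strand. Blocking on the mouse gave 6 calls among the 17 genes, in a fit that called 34.2% of all genes: Wars2, Fars2 and Lars2 higher, and Ears2 (−0.55), Pars2 (−0.58) and Hars2 (−0.28) lower. DESeq2 called 5. The count was 1 without mouse 449, 496 or 520, 4 without mouse 453 or 503, and 3 without both mice 496 and 503.

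In NDI1 BMDMs, piericidin A alone gave 0 calls among the 37 genes, and 0.0% of all genes were called. edgeR had 58 genes and DESeq2 59 at an unadjusted p under 0.05, with 0 synthetase genes among them by either tool. The log2 fold changes of the 20 cytosolic genes lay between −0.05 and 0.22, with a median of 0.05, and 16 of the 20 were above 0. Yars was at 25.0, 18.9, 20.0, 24.1 and 27.2 CPM untreated and 27.2, 21.2, 22.7, 27.8 and 34.5 CPM with piericidin A, and was higher within 5 of 5 mice, by 0.12 to 0.34 on the log2 scale. In WT the same difference was 0.56 to 1.16, without overlap between the genotypes. Rars was at 71.4, 69.1, 60.1, 76.4 and 80.4 CPM and 87.8, 63.0, 71.6, 78.5 and 84.0 CPM in NDI1, with a log2 difference of −0.13 to 0.30 within mice against 0.60 to 0.83 in WT. Yars and Rars were picked by their rise in WT, which favours such a gap. The share of all genes with a gap of this kind was not computed. The direct edgeR test of the genotype difference called Rars, as described next, but not Yars (adjusted p = 0.154).

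**Figure D5:**
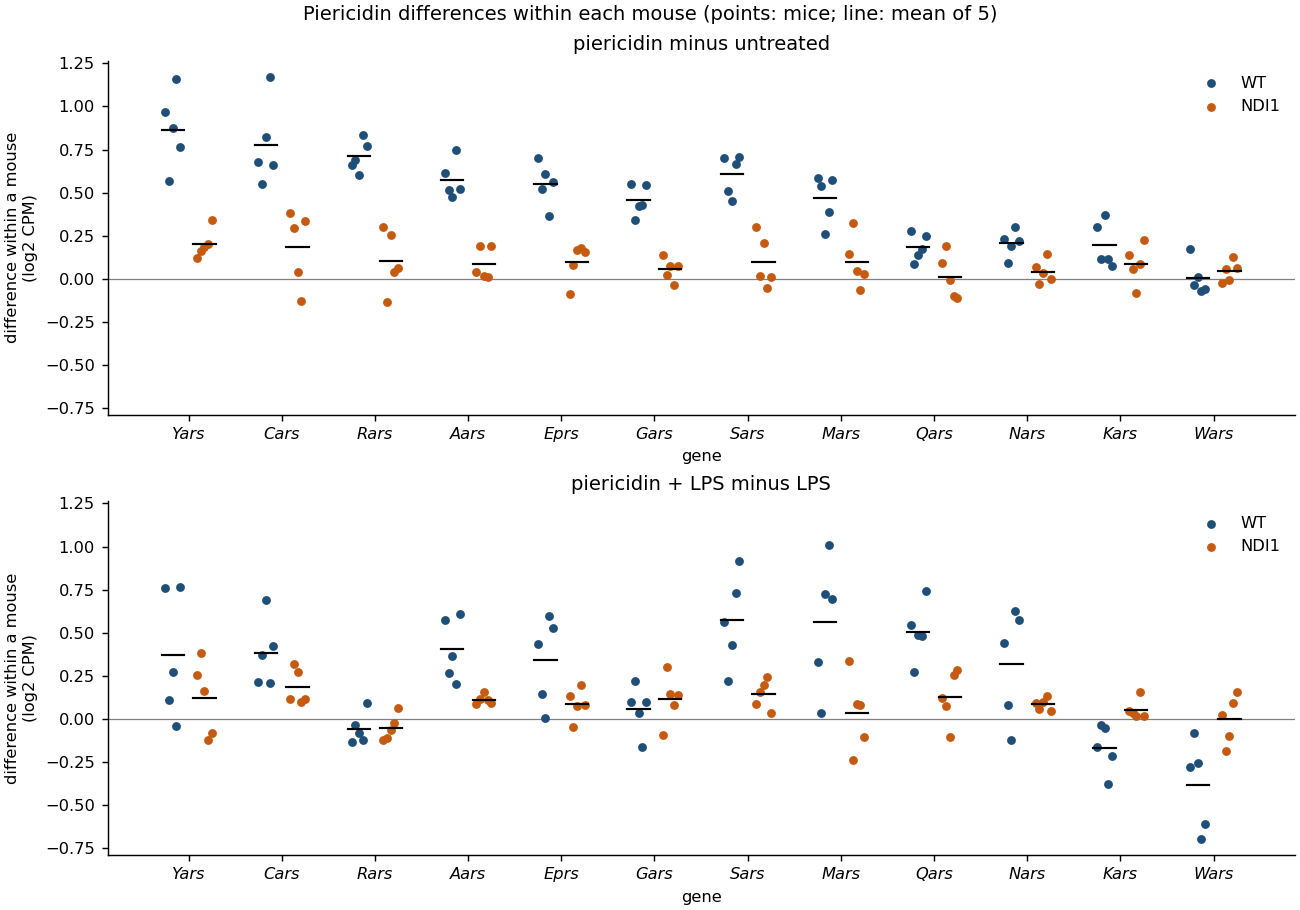
Differences on the log2 CPM scale within each mouse for 12 cytosolic synthetase genes, piericidin A minus untreated (top) and piericidin A with LPS minus LPS (bottom). Points are mice (5 WT, 5 NDI1) and black lines are means. In the top panel Rars lies at 0.60 to 0.83 in WT and −0.13 to 0.30 in NDI1, and in the bottom panel the WT points of Mars spread from 0.04 to 1.01.

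The difference of the piericidin effect between genotypes was tested directly. Rars was called, at a log2 difference (NDI1 minus WT) of −0.61 (SE 0.15, adjusted p = 0.0335), and it was the only one of the 20 cytosolic genes called, with 0 in the mitochondrial group and 1.27% of all genes. This call was lost without mouse 449, 460, 461, 496, 503, 520 or 521, without both mice 496 and 503, and when no filter on low counts was used, where the count was 0. In the blocked fit, which called 8.96% of all genes, 7 cytosolic genes differed, each with a smaller rise in NDI1: Rars, Aars, Cars, Eprs, Gars, Sars and Yars. Their log2 differences without the block were between −0.67 (Yars) and −0.40 (Gars). In the mitochondrial group Wars2 was called with the block, at −0.61 and an adjusted p of 0.0439.

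Under piericidin A alone, 5 of the 6 cytosolic genes that rose in WT were called lower in NDI1 than in WT. Compared directly, 5 cytosolic genes were lower in NDI1 (25.0%, where 7.8% of all genes were called in either direction): Yars by 0.76, Rars by 0.61, Cars by 0.56, Eprs by 0.47 and Aars by 0.46 on the log2 scale. Gars, the other gene that rose in WT, had a log2 fold change of −0.38 (SE 0.13, adjusted p = 0.0579) and was not called. Wars2 was lower by 0.57. The 5 WT libraries of Rars lay at 102 to 135 CPM and the NDI1 libraries at 63.0 to 87.8 CPM, without overlap. The count of cytosolic calls was 3 without mouse 453, 460, 461, 503 or 520 and 3 in a fit of the compared groups alone, which called 0 mitochondrial genes, as did the fit with no filter. Without both mice 496 and 503 it was 4, with 0 in the mitochondrial group. This comparison shares its piericidin libraries with the test of the genotype difference. It also shares the WT piericidin libraries with the comparison that picked the 6 genes. Genes picked as high in those libraries are partly bound to lie lower in NDI1, so the 5 of 6 is not separate support.

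Given before LPS, piericidin A raised 5 cytosolic genes in WT. Against LPS alone, 5 of 20 cytosolic genes rose (25.0%, against 7.81% of all genes that rose and 8.92% that fell): Mars, Qars, Aars, Eprs and Nars. Aars and Eprs were also called under piericidin A alone, 2 of the 6 there and 2 of the 5 here. In the mitochondrial group 1 gene, Fars2, rose (5.88%). These counts depended on the libraries and the fit. The cytosolic count was 0 without mouse 520, 1 without 449 or 496, 2 without 447, 460 or 461, 3 without 453 and 4 without both mice 496 and 503. It was 1 with no filter, 2 in a fit of the compared groups alone and 9 with the mouse as a block, where 34.5% of all genes were called. The mitochondrial count was 0 without mouse 496 or 520, 3 without 453, and 4 with the block.

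Qars was at 48.7, 58.7, 64.3, 44.5 and 45.6 CPM with LPS and 71.0, 70.9, 90.0, 62.2 and 76.5 CPM with both. It was higher within 5 of 5 mice by 0.27 to 0.74, with a log2 fold change of 0.50 (SE 0.13, adjusted p = 0.00565). Mars was at 21.8, 20.0, 26.7, 16.2 and 27.4 CPM with LPS and 27.5, 20.5, 44.2, 32.8 and 44.6 CPM with both, a log2 fold change of 0.60 (SE 0.21, adjusted p = 0.0415). Mice 449 and 452 had the smallest differences, 0.33 and 0.04, and Ddit3, whose exon sequence Mars shares, had a log2 fold change of 0.43 (adjusted p = 0.333). Aars was at 159, 167, 181, 146 and 161 CPM and 236, 201, 233, 168 and 245 CPM, with a log2 fold change of 0.41 (SE 0.14, adjusted p = 0.0425). Eprs was at 89.0, 82.6, 88.1, 81.1 and 92.8 CPM and 120.4, 91.2, 88.4, 123 and 134 CPM, with a log2 fold change of 0.36 (SE 0.11, adjusted p = 0.0188). Mice 449, 496 and 520 had Eprs differences of 0.43 to 0.60, and mice 452 and 453 changed by 0.14 and 0.00. Nars, at 152, 153, 141, 114 and 155 CPM and 206, 161, 129.6, 176 and 230.4 CPM, had a log2 fold change of 0.34 (SE 0.12, adjusted p = 0.0452), with mouse 453 lower. Fars2 was at 13.8, 13.992, 16.7, 9.74 and 12.6 CPM and 19.8, 14.5, 21.8, 20.9 and 30.2 CPM, with a log2 fold change of 0.68 (SE 0.19, adjusted p = 0.0112). The ranges of the LPS groups with and without piericidin A overlapped in each of these 6 genes.

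Sars, Cars and Yars were called here with the mouse as a block, at log2 fold changes of 0.57, 0.39 and 0.40 and adjusted p of 7.37e-06, 0.00171 and 0.00635 with the block. Sars and Cars were also called without mouse 503, at adjusted p of 0.0373 and 0.0488. Wars was lower. It was at 259, 250.4, 204, 205 and 219 CPM with LPS and 213, 237, 171, 126 and 143 CPM with both, and was lower with piericidin A within 5 of 5 mice by 0.08 to 0.69. The log2 fold change of −0.35 (SE 0.13, adjusted p = 0.0534) missed the threshold. It passed with relative log expression (RLE) size factors in edgeR (0.0451), in DESeq2 (0.0321), without mouse 452 (0.0269) and with the block, where the adjusted p was 0.00485. Rars and Gars, which rose with piericidin A alone, had log2 fold changes of −0.06 and 0.06. Neutrophil and precursor markers summed to 58.2 to 1473 CPM in WT libraries with both treatments and 30.0 to 574 CPM with LPS alone, highest in mouse 496, and stromal markers to 6.65 to 110.0 and 5.41 to 69.8 CPM. Their part in these results was not tested.

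In NDI1 BMDMs with LPS, piericidin A gave 0 calls among the 37 genes, with 0.0% of all genes called and 127 genes by edgeR and 130 by DESeq2 at an unadjusted p under 0.05, again none of them a synthetase gene. The log2 fold changes of the 20 cytosolic genes lay between −0.06 and 0.19, with a median of 0.07, and 17 of the 20 were above 0. The test of the genotype difference called 0 of the 37 genes, where 0.979% of all genes were called, with 1 cytosolic gene at an unadjusted p under 0.05 by edgeR and 2 by DESeq2. With the mouse as a block (9.51% of all genes), Mars, Qars and Sars differed, at log2 differences of −0.57, −0.38 and −0.45. Direct comparison of NDI1 with WT under both treatments called 2 of the 37 genes, where 12.0% of all genes were called. Wars was higher in NDI1, at 229, 230.3, 239.8, 216 and 259 CPM against 213, 237, 171, 126 and 143 CPM in WT, a log2 fold change of 0.40 (SE 0.13, adjusted p = 0.0359). Yars2 was higher, at 13.4, 11.2, 11.2, 11.9 and 13.3 CPM against 5.09, 4.48, 5.93, 7.72 and 9.98 CPM, a log2 fold change of 0.88 (SE 0.25, adjusted p = 0.0187). The Yars2 groups did not overlap, and its untreated NDI1 libraries, at 9.58, 9.76, 7.95, 9.50 and 10.9 CPM, overlapped those of WT, at 6.03, 4.92, 5.55, 9.14 and 9.77 CPM. The Yars2 mean was already higher in NDI1 when untreated, at 6.06 against 4.50 CPM per kb. With LPS alone it was 7.41 against 5.57, and with piericidin A alone 6.50 against 4.43. In each of these comparisons the ranges overlapped and Yars2 was not called. The Wars call was lost without mouse 460, 461, 496, 520 or 521, where the cytosolic count was 0, and the count was 2 without 452 or 453. The mitochondrial count was 3 without mouse 452. In a fit of the compared groups alone both counts were 0, as they were without both mice 496 and 503.

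Whether piericidin A acted differently with and without LPS was tested in WT. Rars was called, with a piericidin effect lower under LPS by a log2 difference of −0.77 (SE 0.15, adjusted p = 0.00208), where 4.75% of all genes were called. It was the only cytosolic call, and the count was 1 with any 1 mouse left out. With LPS alone Rars stood at 180 to 240 CPM and with both treatments at 169 to 229 CPM, against 102 to 135 CPM with piericidin A alone. With the mouse as a block (17.4% of all genes), 6 cytosolic genes were called: Rars, Cars, Gars, Kars and Yars lower and Qars higher, the last at 0.32. In the mitochondrial group 0 genes were called, 1 with the block (Tars2, 0.62) and 1 without mouse 453.

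Genes around the synthetases were read from lists of translation and tRNA charging genes. The 4 mitochondrial charging accessory genes, Gatb, Gatc and Qrsl1 (which make glutaminyl-tRNA in mitochondria) and Mtfmt (which formylates the initiator tRNA), all fell with LPS in WT and in NDI1 (100.0%, against 31.0% and 31.2% of all genes). Gatc fell most, with a log2 fold change of −2.16 (adjusted p = 1.19e-11) in WT, and also fell with piericidin A alone, at −0.69 (adjusted p = 0.00894). Of 9 mitochondrial translation factors, 6 fell with LPS in WT (66.7%) and 1 (11.1%, against 31.5% of all genes), the elongation factor Gfm1, rose by 0.42 (adjusted p = 0.000391). Of 5 cytosolic elongation factors, 2 (40.0%), Eef1a1 and Eef1g, rose with LPS in WT, and 2, Eef1a1 and Eef1b2, with piericidin A alone in WT (against 7.79% of all genes), at 0.44 (adjusted p = 0.0241) and 0.51 (adjusted p = 0.046). In NDI1 0 of the 5 were called in either comparison, where 31.5% of all genes rose with LPS and 0.0% were called with piericidin A. Eef1a1 and Eef1g were at 0.29 (adjusted p = 0.0642) and 0.24 (adjusted p = 0.0524) with LPS in NDI1. With the mouse as a block, 3 of the 5 rose with LPS in each genotype (72.0% of all genes were called in WT and 72.4% in NDI1), and with piericidin A alone 5 rose in WT (34.2% of all genes). Tarsl2, a cytosolic threonyl-tRNA synthetase whose symbol the rule does not take, fell with LPS at −1.33 (adjusted p = 4.42e-05) and rose with piericidin A under LPS at 0.85 (adjusted p = 0.0304). Under LPS, 0 of the 6 ATF4 reference genes were called for piericidin A in WT (7.81% of all genes rose and 8.92% fell), with 3 called with the mouse as a block (34.5% of all genes), and Atf4 had a log2 fold change of 0.20 (adjusted p = 0.617).

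Lars2, the mitochondrial leucyl-tRNA synthetase, stood apart from the other 36 genes. Untreated WT libraries held 189.9, 202, 183, 367 and 168 CPM and LPS libraries 367, 190.4, 204, 636 and 525 CPM. With piericidin A alone WT libraries held 407, 628, 172, 522 and 479 CPM. The groups overlapped throughout, and within-mouse differences with piericidin A covered −0.09 to 1.64 in WT mice, and −1.31 to 1.46 in NDI1 mice. Its log2 fold changes were 0.79 (SE 0.36, adjusted p = 0.0558) with LPS and 0.99 (SE 0.36, adjusted p = 0.0591) with piericidin A, the largest of the 37 genes in the latter, and neither passed the test, while both did with the mouse as a block (adjusted p of 0.0412 and 0.0177). Over the 40 libraries Lars2 levels, from 160 to 762 CPM, followed those of Gm15564, Mir6236, Gm42418 and Gm23935, gene models picked out after their values were seen, with Pearson's r of 0.98, 0.98, 0.97 and 0.96 as a description. Gm15564 had an r of −0.54 to 0.49 with the other 36 synthetase genes. Whether the Lars2 counts come from Lars2 transcripts was not tested, and its values are kept apart from the mitochondrial sums given above.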

How the data were processed

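The data were RNA-seq gene counts of 40 BMDM libraries from 10 mice, 5 per group. By the study's methods and the labels, the authors made poly(A) libraries, demultiplexed with bcl2fastq, trimmed with Trimmomatic, aligned to mm10 with STAR and counted reads per gene with HTSeq, and they deposited these counts without normalization. The annotation release and strand setting are not given in the sources used here. Groups came from the labels. After edgeR's filterByExpr, 11853 genes were fitted in edgeR 4.0.16 (R 4.3.3) over all 40 libraries, with TMM factors, 1 coefficient per group, glmQLFTest and Benjamini-Hochberg adjustment over all genes. Alternatives were DESeq2 1.42.0, RLE factors, other filters, a fit of the compared groups alone, a block for the mouse, and leaving out mice. Scripts were tested on simulated data. Within-mouse log2 CPM used a prior count of 2. The mouse number in the titles ties together 4 libraries of an animal, whose deviations from group means correlated at 0.453 on average (0.0995 to 0.769 over 60 pairs), against −0.107 between mice. The lowest chi-square per degree of freedom between replicates was 9.32. Values of each library are given for the 5 cytosolic and 3 mitochondrial calls with the largest fold change for LPS, piericidin A, and piericidin A with LPS in WT, and for Wars, Gars, Kars, Qars and Eprs. Farsb, Sars, Lars2, Yars2 and NDI1 values were added after they were seen. The members and lists were chosen with earlier results of these data known. Some values of the mitochondrial group and some promoter letters are not reported here.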

Additional observations from a re-analysis of the deposited data

Results flagged for a closer look

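Among 144 groups of 5 libraries tested, 4 held a value far from the others of its group, and chance alone gives about 1 in 20. Mouse 503 was lowest for Cars in NDI1 libraries with both treatments, at 33.4 CPM against a median of 43.5 in the other mice. It was also lowest for Fars2 in untreated NDI1 libraries, at 12.1 CPM against 19.6, and for Pars2 in NDI1 libraries with LPS, at 0.669 CPM against 1.67. Mouse 521 was highest for Mars in untreated NDI1 libraries, at 47.8 CPM against 33.3. The piericidin effect on Rars differed between the genotypes, at a log2 difference (NDI1 minus WT) of −0.61, and between WT cells with and without LPS, at −0.77.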

How the results depend on the processing

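Of 26 counts of called synthetase genes, 12 stayed within 1.5 times their value under all alternatives run, and of 27 single gene calls 18 held under all of them. Among the 12, those above 0 were LPS counts: the cytosolic ones in both genotypes and the mitochondrial one in NDI1. The rest of the 12 were 0 in every fit. The single calls belong to 18 genes, mostly picked for the largest fold changes. No single call changed direction. With the mouse as a replicate block, the counts of calls became 10 (6 without it) for cytosolic and 6 for mitochondrial genes with piericidin A alone in WT, 9 and 4 with piericidin A under LPS, 7 and 1 for the genotype difference of the piericidin effect without LPS, 3 cytosolic for that difference with LPS, and 6 and 1 for the difference between WT cells with and without LPS. The block changed no other of the 26 counts by over 1.5 times, and it could not be fitted for NDI1 against WT, which are different mice. DESeq2 called 5 mitochondrial genes for piericidin A alone in WT, 2 for NDI1 against WT with piericidin A, and 2 cytosolic genes for NDI1 against WT with both treatments. With no filter on low counts, 1 mitochondrial gene was called for piericidin A alone, 1 cytosolic gene for piericidin A under LPS, 0 cytosolic genes for the genotype difference without LPS and 0 mitochondrial genes for NDI1 against WT with piericidin A. With at least 10 counts in every library, fewer mitochondrial genes were tested and 7 fell with LPS in WT, and 2 cytosolic and 2 mitochondrial genes differed between genotypes with both treatments. A fit of the compared groups alone called 2 cytosolic genes for piericidin A under LPS, 3 cytosolic and 0 mitochondrial genes for NDI1 against WT with piericidin A, and 0 and 0 with both treatments. Leaving out 1 mouse at a time gave 1 to 4 mitochondrial calls for piericidin A alone, 0 to 7 cytosolic and 0 to 3 mitochondrial calls under LPS, 0 to 1 cytosolic calls for the genotype difference without LPS, 0 to 1 mitochondrial calls for the difference with and without LPS, 3 to 6 cytosolic calls for NDI1 against WT with piericidin A, and 0 to 2 and 1 to 3 with both treatments. Beyond the smaller numbers of genes or libraries these fits used, the cause was not tested. A prior count of 0.5 in place of 2 moved 0 of 54 within-mouse values beyond the spread between mice. Leaving out mice 496 and 503 together was chosen after seeing the data and run for the 26 counts only. It gave 0 cytosolic calls for the genotype difference without LPS, 0 mitochondrial calls for NDI1 against WT with piericidin A, and 0 and 0 with both treatments, and moved no other count by over 1.5 times. Low counts limit Mars2, Nars2 and Pars2 most.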
